A study of Homo sapiens with 18 samples.

Results

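WWOX overexpression alone (WK) was compared with the double control (KK) in 3 lines of human bladder cancer cells, CAL-29, HT-1376 and RT-112. The comparison used the 6 WK and KK libraries of 18 in all, 1 library for each line and variant, and every change was taken within a line. Of the 16575 genes listed, 12607 reached at least 5 CPM (the reads of a gene scaled to a common library total) in at least 1 of the 6 libraries. A change below is the difference WK minus KK of log2(CPM + 0.5), so that a change of 1 is about a doubling for a well expressed gene and less for a gene near 0.

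All 3 lines were established from urinary bladder carcinoma. WK cells received WWOX from the lentiviral vector pLenti-GIII-CMV-GFP-2A-Puro, with its CMV promoter, in a first transduction, and a blank vector in a second one. KK cells received blank vectors in both. Puromycin selection followed the first transduction and G418 selection the second, in WK and KK alike, and neither variant overexpressed AP-2α or AP-2γ. The other variants, used here only beside a result, carried AP-2α (KA, WA) or AP-2γ (KC, WC) from the second transduction, without (K) or with (W) WWOX from the first. Since WK and WA cells, or KK and KA cells, share a first transduction in each line, those pairs of variants are not independent of each other. With 1 library a variant and line, the lines are the replicates, and the difference between 2 transduced cultures of a line cannot be told apart from that of WWOX.

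WWOX is a tumour suppressor that spans a common fragile site. Its WW domains bind proline-rich motifs of partner proteins, among them the transcription factors AP-2α and AP-2γ, which it can hold in the cytoplasm. In bladder epithelium, AP-2 factors take part in keeping epithelial identity. The libraries came from cap analysis of gene expression (CAGE), which reads the first bases of capped transcripts, so that a level is a count of transcript starts.

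The 6 libraries held between 14287464 and 17383090 reads on genes. Between 5.64% and 9.75% of CPM lay on the 10 most abundant genes. Markers of other cell types were low in most libraries. Of 11 fibroblast and smooth muscle genes 5 are listed, summing to 1.27 to 22.0 CPM, of 11 leukocyte genes 2 (2.36 to 15.7 CPM), of 9 endothelial genes 1 (0.05 to 2.10 CPM) and of 10 neuronal and neuroendocrine genes 4 (6.51 to 48.2 CPM). In HT-1376 3 of these sums were higher in WK than in KK, 22.0 against 4.14 CPM, 11.4 against 2.36 CPM and 48.2 against 6.51 CPM, mainly through COL1A2 (21.4 and 2.50 CPM), CD68 (11.3 and 2.10 CPM) and CHGA (34.8 and 1.71 CPM); their part in the HT-1376 changes was not tested. In CAL-29 the neuronal and neuroendocrine sum was lower in WK, 16.2 against 44.6 CPM, as was the fibroblast and smooth muscle sum, 1.27 against 4.82 CPM, and their part in the CAL-29 changes was not tested either. A lower level of a gene can stand for fewer cells that express it or for less RNA in each, and these libraries cannot tell the 2 apart. The epithelial keratin KRT18 stood between 654 and 4389 CPM, whereas other keratins were low in some lines. The library labelled CAL-29 KC, which is not among the 6, held 199 CPM of KRT14, against 0.05 to 1.12 CPM in the 5 other CAL-29 libraries and 346 to 766 CPM in HT-1376. It was therefore left out of every comparison and ranking below, unless stated.

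The WWOX gene itself was read at 26.0 CPM in KK and 22.3 CPM in WK of RT-112. It stood at 22.4 and 18.6 CPM in HT-1376, and at 63.7 and 155 CPM in CAL-29. Only the CAL-29 pair was higher in WK, the tags of the gene being lower in WK of RT-112 and HT-1376. WK below stands for the libraries labelled so. Transcripts driven by the vector's CMV promoter start in the vector, so tags at the gene's own starts need not show them. Whether tags of the vector's transcript were counted for the gene was not tested. The paper reports that Western blots for WWOX protein were made to check the transductions, and tags do not measure protein. Over the 3 lines the mean change of WWOX was 0.27 (SE 0.37; limma adjusted p = 0.888). Values given in threes below stand in the order RT-112, HT-1376, CAL-29. TFAP2A, which encodes AP-2α, had changes of 0.17, 0.16 and 0.79, and TFAP2C, which encodes AP-2γ, of -0.04, -1.19 and 0.08. Neither passed the test (limma adjusted p = 0.823 and 0.836).

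The change between WK and KK differed in size from line to line. Its SD over genes was 0.36 for RT-112, 1.01 for HT-1376, 0.96 for CAL-29, and changes of 1 or more were counted in 207, 2782 and 3119 genes. RT-112 had 177 such genes (1.40% of those tested) higher in WK and 30 (0.238%) lower. HT-1376 had 993 (7.88%) higher and 1789 (14.2%) lower, and CAL-29 1041 (8.26%) higher and 2078 (16.5%) lower. The median change was 0.03, -0.15 and -0.15. Across genes, which are not independent replicates, the changes of 2 lines correlated weakly (Pearson's r of 0.06 for RT-112 and HT-1376, 0.08 for RT-112 and CAL-29, 0.06 for HT-1376 and CAL-29).

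With the cell line as a block, limma called 0 genes at an adjusted p under 0.05. The smallest adjusted p was 0.823, and 478 genes (3.79%) had an unadjusted p under 0.05, 236 higher and 242 lower in WK. On recovered reads edgeR called 0 genes and DESeq2 33, 32 of them higher in WK. Without the HT-1376 pair limma called 9 genes, all higher: PI3, PLA2G2A, S100A8, C3, KRT4, AQP3, PIGR, RHOV and WFDC21P. The limma test was also run on simulated libraries of the same depth, with 1 spread per gene for all 3 lines. It called 39 of 100 genes changed 4-fold and 2 of 100 genes changed 2-fold, with 0 false calls. The changed genes had a mean of at least 5 CPM and the same change in every line. The real changes differed between lines, so these rates do not carry over to them. Since the main test called 0 genes, the counts below describe direction and size in the 3 lines and are not calls.

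**Figure D1:**
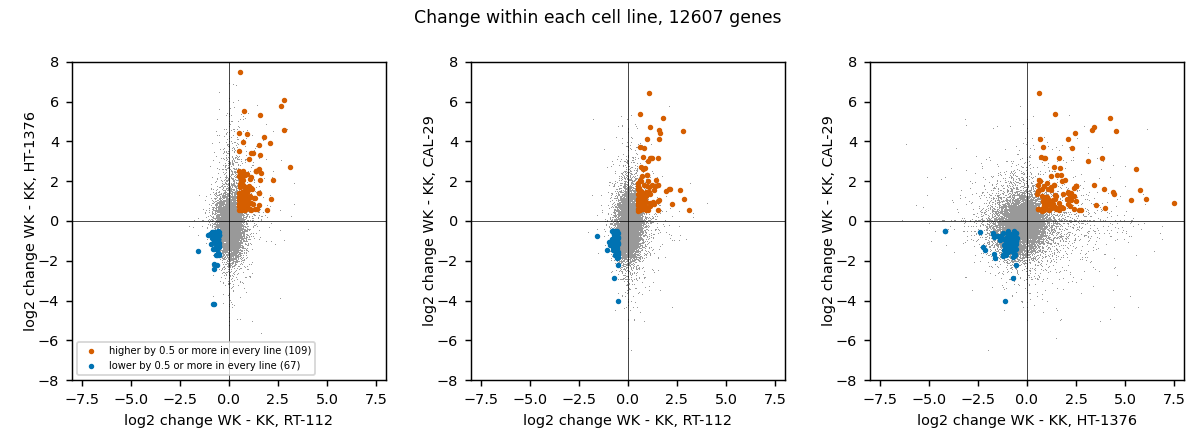
Change WK minus KK of log2(CPM + 0.5) of 12607 genes in each pair of cell lines, 1 grey dot a gene. Orange dots are the 109 genes higher and blue dots the 67 genes lower by 0.5 or more in every line; the cloud is narrow along RT-112 (SD 0.36) and wide along HT-1376 and CAL-29 (SD 1.01 and 0.96).

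In all 3 lines, 1262 genes (10% of those tested) were higher in WK and 1991 (15.8%) were lower. A change of 0.5 or more in every line was reached by 109 genes (0.865%) upwards and 67 (0.531%) downwards. A change of 1 or more in every line was reached by 23 genes (0.182%) upwards and 0 downwards. With TMM scaling, which moved the median change by 0.14 in HT-1376 and 0.20 in CAL-29, the 109 and 67 became 139 and 54. Of the 109 higher genes 23 were members of any list, and of the 67 lower genes 1 was. Among the 23 were 6 basal and squamous genes, 4 S100 genes and 3 each of the NF-κB, TGF-β and mucosal lists. S100A7, S100A8 and S100A9 stood in both the basal and squamous list and the S100 list. The share of all genes that stood in any list was not counted. The lower genes were mostly weakly read: 22.4% of them, 46.8% of the higher genes and 61.1% of all genes reached 5 CPM in every line.

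PI3 encodes elafin, an elastase inhibitor of stressed epithelium. It stood at 6.65 CPM in KK, 49.2 CPM in WK of RT-112, at 1.91 and 56.4 CPM in HT-1376, and at 1.51 and 46.0 CPM in CAL-29. The 3 WK libraries were close to each other and above all 3 KK libraries. The ratio WK to KK was 7.40 in RT-112 (95% interval 6.11 to 9.03), 29.5 for HT-1376 (20.4 to 44.4), 30.5 for CAL-29 (20.7 to 46.4), the intervals covering counting error only. The mean change of PI3 was 3.96 (SE 0.43; limma adjusted p = 0.823), with the same direction in 3 of 3 lines.

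S100A8 and S100A9 encode the subunits of calprotectin, a calcium- and zinc-binding antimicrobial protein. S100A8 stood at 702 CPM in KK, 2389 CPM in WK of RT-112, at 733 and 13732 CPM in HT-1376, and at 32.3 and 1179 CPM in CAL-29. S100A9 was at 3486 and 7625 CPM, 1204 and 12842 CPM, and 58.6 and 1538 CPM in the same order. WK exceeded KK within each line for both genes; across lines the groups did not overlap for S100A8 and overlapped for S100A9. S100A7 (psoriasin) was at 0.72 and 3.27 CPM, 144 and 785 CPM, and 1.51 and 42.4 CPM. Of the 13 S100 genes past the filter 5 (38.5%, all genes 10%) were higher in all 3 lines and 0 lower. The medians were 0.01, 0.52 and 1.39, beside 0.03, -0.15 and -0.15 over all genes. This list and those below were chosen with earlier results of these data known, so their shares are descriptions and not tests. In CAL-29, without the KC library, KK was the lowest for 11 of the 13 (84.6%, all genes 14.7%). WK was the highest there for 2 (15.4%, all genes 20.5%). It was the highest for 3 in RT-112 (23.1%, all genes 14.6%) and 0 in HT-1376 (all genes 12.2%). S100A2 stood at 23.2 CPM in KK, 4276 CPM in WK of HT-1376, where RT-112 had 5075 and 7574 CPM.

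Of the 109 higher genes, 7 lay together on chromosome 1 between 153031203 and 153567890 (hg38): SPRR1B, PGLYRP4, S100A9, S100A12, S100A8, S100A7 and S100A2. This is the epidermal differentiation complex, which holds the S100 and small proline-rich genes of the cornifying epithelium. The bounds are those of the 7 genes themselves. How many of all genes past the filter lie between them was not counted. S100A12, another alarmin, had changes of 1.19, 1.62 and 3.18. SPRR1B, a cross-linked protein of the cornified envelope, was at 2.11 and 18.1 CPM in RT-112, 2.96 and 235 CPM for HT-1376, 0.95 and 2.6 CPM for CAL-29.

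Among plasma and acute phase proteins, C3, the central complement component, was at 24.9 and 73.0 CPM in KK and WK of RT-112, 14.7 and 215 CPM for HT-1376, 13.2 and 124 CPM for CAL-29. The lowest WK library was above the highest KK library. SERPINA1 (α1-antitrypsin) was at 0.33 and 3.05 CPM, 1.91 and 36.4 CPM, and 0.62 and 2.87 CPM. SAA1, an acute phase apolipoprotein, was at 7.37 and 22.4 CPM, 14 and 37.5 CPM, and 5.33 and 19.8 CPM, changes of 1.54, 1.39 and 1.80. RNA5SP334, a pseudogene within the same locus, holds exactly the values of SAA1, so its tags are not its own. The complement gene CFB had changes of 0.61, 0.82 and 3.70. PDZK1IP1, a small membrane protein, and WFDC21P, a whey-acidic-protein pseudogene, were among the leading genes, as was KRT6A, a keratin of activated squamous epithelium. KRT6A was at 2.33 and 17.3 CPM, 0.13 and 34.0 CPM, and 0.50 and 2.49 CPM. Genes with near-identical copies (SAA1, KRT6A, S100A7, HLA-B and the like), and genes with a partner on the opposite strand, are uncertain, since how tags were shared between copies or strands is not given in the sources used here.

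**Figure D2:**
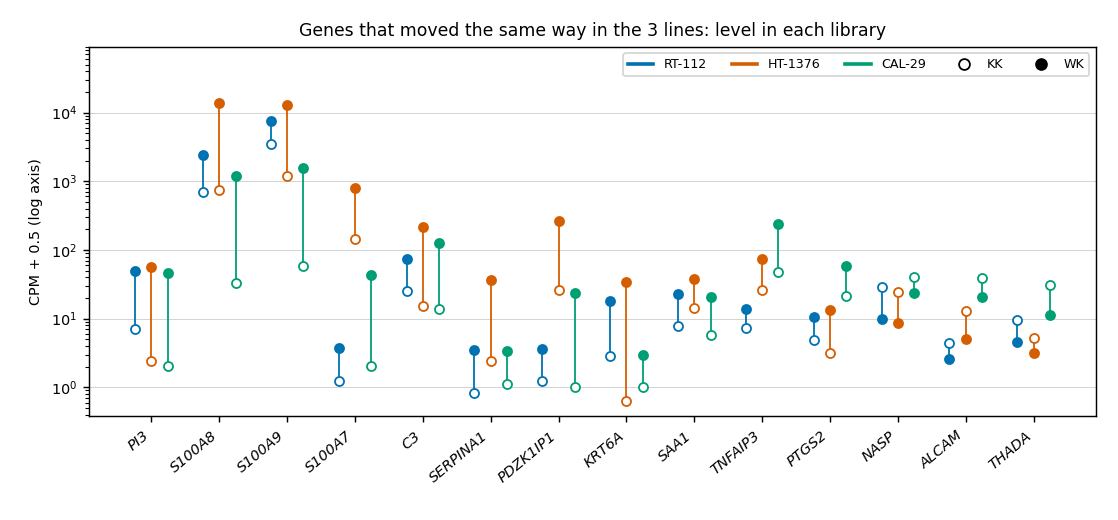
CPM + 0.5 on a log axis of 14 genes in each of the 6 libraries, open circles for KK and filled circles for WK, joined within a line. The first 11 genes were higher in WK in all 3 lines and the last 3 (NASP, ALCAM, THADA) were lower; PI3 reached 46.0 to 56.4 CPM in the 3 WK libraries from 1.51 to 6.65 CPM in KK.

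The promoters of 4 of these genes are given here as reference sequence, 250 bases before the start of the gene, to show the letters that AP-2, AP-1 and NF-κB are known to bind. They were chosen after their values were seen, and each of them holds a match. The same windows of the higher genes S100A8, S100A9, PDZK1IP1 and PTGS2 held no AP-2, AP-1 or NF-κB letters and are not shown. The window of SERPINB2, also a higher gene, held AP-1 letters and is not shown either. Capitals mark matches, on either strand, to GCCNNNGGC (AP-2) in S100A7 and SERPINA1, to TGANTCA (AP-1) in SPRR1B and to GGGA and TTCC set 2 bases apart (NF-κB) in TNFAIP3. The windows are chr1:153460652-153460901 on the minus strand, chr14:94390636-94390885 on the minus strand, chr1:153030953-153031202 on the plus strand and chr6:137867009-137867258 on the plus strand (RefSeq, GRCh38.p14).
S100A7: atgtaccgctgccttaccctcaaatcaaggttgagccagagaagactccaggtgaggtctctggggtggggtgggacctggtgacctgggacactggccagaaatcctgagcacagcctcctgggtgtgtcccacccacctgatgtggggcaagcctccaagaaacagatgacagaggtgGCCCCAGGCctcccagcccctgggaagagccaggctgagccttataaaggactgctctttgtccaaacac
SERPINA1: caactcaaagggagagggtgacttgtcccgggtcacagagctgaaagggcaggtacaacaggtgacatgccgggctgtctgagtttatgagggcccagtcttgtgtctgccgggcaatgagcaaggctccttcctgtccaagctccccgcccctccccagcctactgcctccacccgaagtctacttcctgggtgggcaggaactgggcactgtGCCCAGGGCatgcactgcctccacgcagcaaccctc
SPRR1B: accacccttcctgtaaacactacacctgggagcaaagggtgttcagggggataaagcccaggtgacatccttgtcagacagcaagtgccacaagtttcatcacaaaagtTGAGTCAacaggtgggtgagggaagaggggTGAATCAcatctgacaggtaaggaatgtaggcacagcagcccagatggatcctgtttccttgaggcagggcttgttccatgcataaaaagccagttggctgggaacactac
TNFAIP3: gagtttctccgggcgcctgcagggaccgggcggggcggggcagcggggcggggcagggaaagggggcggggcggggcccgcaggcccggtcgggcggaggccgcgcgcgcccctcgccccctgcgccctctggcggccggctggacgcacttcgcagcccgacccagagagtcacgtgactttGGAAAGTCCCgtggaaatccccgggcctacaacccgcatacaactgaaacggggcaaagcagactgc

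A reference promoter, 250 bases before to 50 after the start, was found for 74 of the 109 higher genes, 52 of the 67 lower genes and 9756 of all 12607 genes. The AP-2 letters stood in 27% of the higher, 28.8% of the lower and 32.8% of all promoters. The AP-1 letters stood in 8.11%, 0% and 4.47%, the C/EBP letters TTNNGCAA in 14.9%, 13.5% and 6.96%, and the NF-κB letters in 2.70%, 3.85% and 1.54%. The letters TTTC repeated after 2 bases, as in interferon response elements, stood in 8.11%, 1.92% and 2.68%, GGAATG (TEAD) in 16.2%, 3.85% and 10.7%, and CCAAT (NF-Y) in 29.7%, 46.2% and 37.4%. The AP-2 letters, those of the factors that WWOX binds, were thus not more frequent in either set than over all promoters. A match is a description of letters, not of binding.

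Genes under NF-κB, the transcription factor family of inflammatory signalling, were the list with the largest share higher in all 3 lines. Of 24 cytokine, chemokine and feedback genes past the filter, 11 were higher in all 3 lines and 0 lower (45.8%, beside 10% higher and 15.8% lower over all genes), with medians of 0.38 for RT-112, 2.40 for HT-1376, 1.21 for CAL-29. No member passed the limma test. In HT-1376 KK was the lowest library of its line for 19 of the 24 (79.2%, all genes 15.8%). WK was the highest there for 6 (25%, all genes 12.2%). In CAL-29, without the KC library, these counts were 12 (50%, all genes 14.7%) and 9 (37.5%, all genes 20.5%). In RT-112 they were 3 (12.5%, all genes 15.3%) and 7 (29.2%, all genes 14.6%). TNFAIP3, a deubiquitinase that restrains NF-κB, was at 6.70 and 13.5 CPM in KK and WK of RT-112, 25.2 and 74.5 CPM for HT-1376, 47.2 and 236 CPM for CAL-29 (mean change 1.6, SE 0.32; limma adjusted p = 0.823). PTGS2, the inducible cyclooxygenase, was at 4.43 and 10.0 CPM, 2.63 and 12.9 CPM, and 21.1 and 58.6 CPM. IL32 was at 5.54 and 16.8 CPM, 52.4 and 328 CPM, and 55.5 and 80.9 CPM. The neutrophil chemokine CXCL1 differed in 2 lines only: it was at 0.11 CPM in both RT-112 libraries, at 2.56 and 215 CPM in HT-1376, and at 20.4 and 497 CPM in CAL-29. CXCL8 had changes of 0.26, 3.56 and 3.10.

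Basal and squamous genes had medians above 0 in all 3 lines, with more spread. Of 29 past the filter 11 (37.9%, all genes 10%) were higher in all 3 lines and 0 lower, with medians of 0.36, 1.70 and 0.25. In CAL-29 17 of the 29 were above 0. There 12 were higher by 1 or more (all genes 8.26%) and 4 lower by 1 or more (all genes 16.5%). Among the CAL-29 libraries, without KC, KK was the lowest for 15 of the 29 (51.7%, all genes 14.7%). WK was the lowest for 10 (34.5%, all genes 12.7%) and the highest for 3 (10.3%, all genes 20.5%). In HT-1376 KK was the lowest for 17 (58.6%, all genes 15.8%) and WK the highest for 5 (17.2%, all genes 12.2%). In RT-112 these counts were 7 (24.1%, all genes 15.3%) and 15 (51.7%, all genes 14.6%). The basal keratin KRT5 had changes of 0.69, 1.87 and 0.25, whereas KRT14 had changes of -0.32, 0.37 and -0.12. SPRR2A was at 58.9 CPM in WK of HT-1376 and at 0 CPM in its KK library, which allows up to 0.197 CPM; in the other lines it was at 0.11 CPM or less. Of 17 mucins and secreted mucosal genes 7 (41.2%, all genes 10%) were higher in all 3 lines and 0 lower (medians 0.57, 0.61 and 0.84). PIGR, the receptor that carries IgA through epithelium, was at 0.44 and 1.47 CPM, 1.18 and 2.06 CPM, and 3.98 and 387 CPM, so that CAL-29 weighed most in its mean. The membrane mucin MUC1 had changes of 0.57, 1.32 and 1.07.

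Among 39 genes of TGF-β, activin and BMP signalling 14 (35.9%, all genes 10%) were higher in all 3 lines and 3 (7.69%, all genes 15.8%) lower. INHBA, the activin A subunit, had changes of 0.94, 4.36 and 1.48. SMAD7, the inhibitory SMAD, was at 6.54 and 12.7 CPM, 9.34 and 20.2 CPM, and 11.9 and 23.5 CPM, with changes between 0.91 and 1.08. SMAD5, a BMP effector, was lower, from 4.10 to 2.50 CPM, 4.67 to 2.92 CPM and 35.6 to 10.8 CPM. Of 23 AP-1 and immediate early genes 7 (30.4%, all genes 10%) were higher in all 3 lines and 1 lower, JUNB having changes of 0.46, 0.96 and 1.34 and FOSL2 of 0.44, 0.86 and 0.70. In the antigen presentation list 5 of 15 genes (33.3%, all genes 10%) were higher in all 3 lines and 1 lower. HLA-B was at 42.9 and 52.3 CPM, 663 and 1330 CPM, and 577 and 1128 CPM. The Notch ligand JAG1 had changes of 0.53, 0.56 and 0.61.

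The lower genes had smaller changes, none of them past 1 in every line. NASP, a histone H1 chaperone, was among the better read ones, at 28.6 and 9.37 CPM in KK and WK of RT-112, 23.9 and 8.09 CPM for HT-1376, 40.3 and 23.4 CPM for CAL-29. Its 3 WK values lay below all 3 KK values, the ratio being 0.33, 0.34 and 0.58, and its mean change was -1.28 (SE 0.29; limma adjusted p = 0.823). ALCAM, an adhesion molecule of the immunoglobulin family, was at 4.0 and 2.1 CPM, 12.6 and 4.47 CPM, and 39.1 and 19.9 CPM. THADA was at 9.03 and 4.08 CPM, 4.74 and 2.70 CPM, and 30.4 and 10.9 CPM. PPP2R2B, a regulatory subunit of protein phosphatase 2A, had changes of -0.81, -1.40 and -0.91. TTC26, of intraflagellar transport, was read at 0.27 to 0.94 CPM in RT-112, where its ratio of 0.29 had an interval of 0.08 to 0.82. The zinc finger genes ZBTB41, ZNF670 and ZNF277 and the GTPase activator ARHGAP18 stood between 0.22 and 1.77 CPM in RT-112 as well.

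**Figure D3:**
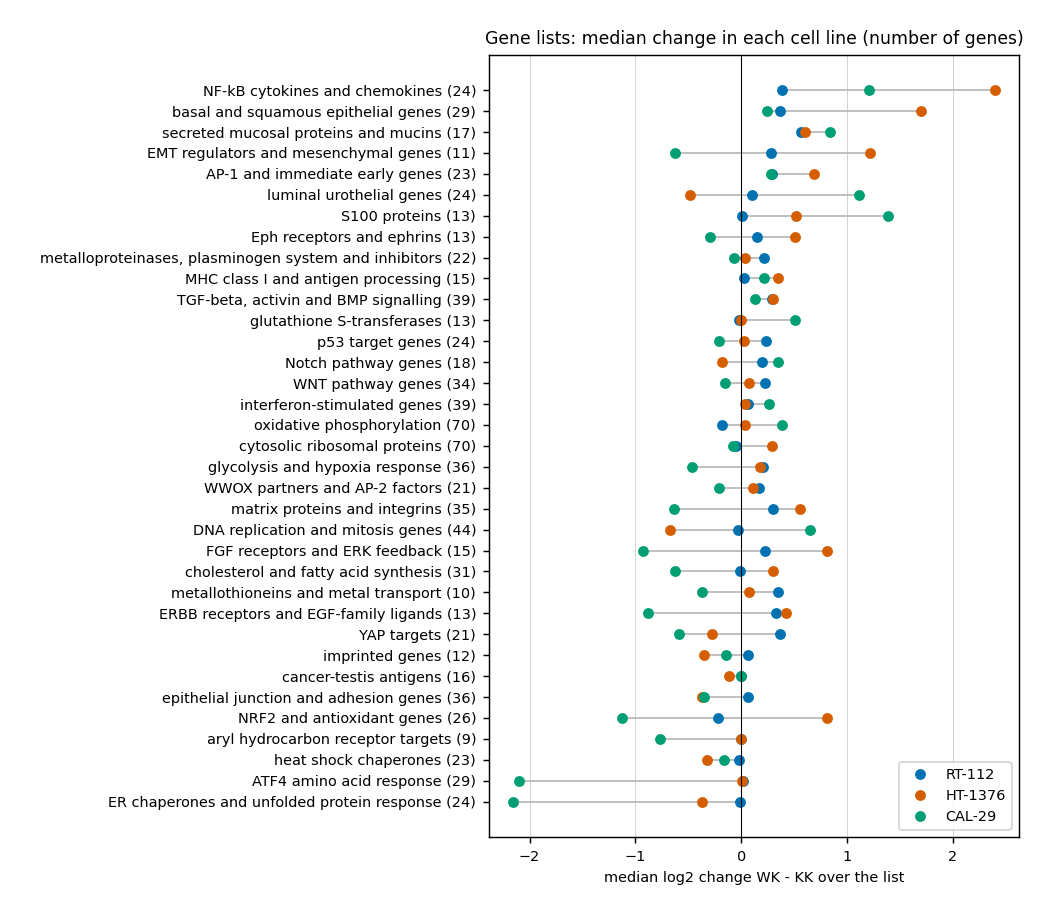
Median change WK minus KK of log2(CPM + 0.5) for 35 gene lists in each cell line, with the number of genes past the filter in brackets and the list ordered by the median of the mean change. NF-κB genes lie at 0.38 to 2.40 in the 3 lines, whereas the ATF4 and endoplasmic reticulum lists lie near -2.10 and -2.16 in CAL-29 and near 0 in RT-112.

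Genes carried by 1 line, with a change of 1 or more there and under 0.5 in the others, numbered 1045. This is 8.29% of the genes tested and 13.6% of the 7698 genes with 5 CPM or more in every line, among which they were taken. RT-112 carried 8 of them, HT-1376 493 (117 higher, 376 lower) and CAL-29 544 (237 higher, 307 lower). In RT-112 the higher ones included RAB32, from 4.88 to 15.3 CPM, MT2A, a metallothionein, from 107 to 270 CPM, and SAT1, a polyamine catabolic enzyme, from 29 to 68.3 CPM. The transcription factor gene SOX15 was lower, from 95.4 to 37.4 CPM.

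In HT-1376 the carried genes that were higher were led by MMP2, a gelatinase, at 0.13 CPM in KK and 31.0 CPM in WK, with 148 and 156 CPM for RT-112, 39.5 and 34.4 CPM for CAL-29. SLC37A2, CCDC9B and SLC12A7 followed, each at 1.38 to 3.03 CPM in KK and 45.0 to 84.6 CPM in WK. The lower ones were led by ZNF704 (15.7 to 0.92 CPM), STMN1, a microtubule destabiliser of dividing cells (671 to 84.1 CPM), and CRIP2 (109 to 15.7 CPM). STMN1 was at 206 and 273 CPM for RT-112, 662 and 533 CPM for CAL-29. The DNA replication and mitosis list had opposite signs in HT-1376 and CAL-29, with medians of -0.68 and 0.65 beside -0.03 in RT-112. Of its 44 genes 17 were lower by 1 or more in HT-1376 (all genes 14.2%), and 16 higher by 1 or more in CAL-29 (all genes 8.26%). KIF20A, a mitotic kinesin, was at 14.2 and 16.5 CPM in RT-112, 67.5 and 10.2 CPM for HT-1376, 10.7 and 41.6 CPM for CAL-29.

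The chaperones of the endoplasmic reticulum and the amino acid response genes under ATF4 were lower in WK of CAL-29. These are the genes cells induce when unfolded protein accumulates or amino acids run short. Of 24 endoplasmic reticulum genes 22 were lower by 1 or more in WK of CAL-29 (all genes 16.5%) and 0 higher (all genes 8.26%). In all 3 lines 8 were lower (33.3%, all genes 15.8%) and 0 higher (all genes 10%). Their medians were -0.01 for RT-112, -0.37 for HT-1376, -2.16 for CAL-29. HSPA5 (BiP), the main chaperone there, stood at 6321 CPM in KK, 373 CPM in WK of CAL-29, at 369 and 157 CPM in HT-1376, and at 59.8 and 60.3 CPM in RT-112. HSP90B1 was at 2740 and 198 CPM in CAL-29 and HYOU1 at 679 and 70.8 CPM. Of 29 ATF4 genes 22 were lower by 1 or more in CAL-29 (all genes 16.5%) and 1 higher (all genes 8.26%), with medians of 0.01, 0.01 and -2.10. ASNS, asparagine synthetase, was at 179 and 39.7 CPM there and SLC7A11, the cystine transporter, at 100.01 and 6.63 CPM. MIR3651 and SNORA84, a microRNA and a small nucleolar RNA, hold equal values in the 6 libraries (326.6 and 18.7 CPM in KK and WK of CAL-29), close to those of IARS1 (326.9 and 18.8 CPM).

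HSPA5 and HYOU1 of CAL-29 were also low in WC and high in KA and WA. HSPA5 was at 6321 CPM in KK, 3903 CPM in KA and 6795 CPM in WA, against 373 CPM in WK and 406 CPM in WC. HYOU1 was at 679, 546 and 999.6 CPM, against 70.8 and 116 CPM. For these 2 genes WA cells, which carry the same first transduction as WK, were on the side of KK. The ATF4 genes stood otherwise: KK was the highest CAL-29 library for 20 of 29 (69.0%, all genes 29.3%) and WK the lowest for 13 (44.8%, all genes 12.7%). IARS1, an aminoacyl-tRNA synthetase, was at 46.2 CPM in KA and 161 CPM in WA, between WK and KK. Among the 24 endoplasmic reticulum genes KK was the highest for 7 (29.2%) and WK the lowest for 12 (50%).

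Luminal urothelial genes were mainly higher in CAL-29, 13 of 24 by 1 or more (all genes 8.26%), with medians of 0.10, -0.48 and 1.11. UPK1B, a uroplakin of the bladder surface, was at 509 and 670 CPM in RT-112, 774 and 269 CPM for HT-1376, 20.6 and 560 CPM for CAL-29. FABP4, a fatty acid carrier under PPARγ, was higher in each line, from 279 to 1306 CPM, 0.33 to 2.98 CPM and 0.73 to 1.71 CPM. Involucrin (IVL), of the cornified envelope, was carried by CAL-29, where it stood at 0.28 and 8.40 CPM. EREG, an EGF-family ligand, was at 12.3 and 0.55 CPM in CAL-29 and at 53.8 and 77.0 CPM in HT-1376. None of the 13 ERBB receptor and ligand genes moved the same way in all 3 lines (all genes 10% higher and 15.8% lower).

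The position of KK and WK among the other libraries of their line was then described, without a test, since KK and WK chose the genes. KK was the lowest library of its line for 33 of the 109 higher genes in RT-112 (30.3%), for 75 of HT-1376 (68.8%) and 69 of CAL-29 (63.3%), against 15.3%, 15.8% and 14.7% of all genes, the CAL-29 KC library being left out of the ranking. WK was the highest for 69 (63.3%), 22 (20.2%) and 54 (49.5%), against 14.6%, 12.2% and 20.5%. For the 67 lower genes WK was the lowest library in 55 (82.1%), 42 (62.7%) and 7 (10.4%) cases, against 15.1%, 24.3% and 12.7% of all genes. KK was the highest in 8 (11.9%), 8 (11.9%) and 45 (67.2%), against 6.85%, 13.4% and 29.3%. The counts for WK in CAL-29 and KK in HT-1376 were thus below the share over all genes. The median level of KK minus the mean of the other libraries for the higher genes was -0.24, -1.33 and -0.86. S100A8 in CAL-29 was at 32.3 CPM in KK but 5337 CPM in KA, and PI3 at 1.51 and 180 CPM, so that control cells with AP-2α and no WWOX stood above WK. In RT-112 the same was seen for PI3, at 6.65 CPM in KK, 52.1 CPM in KA, 42.5 CPM in KC and 49.2 CPM in WK.

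**Figure D4:**
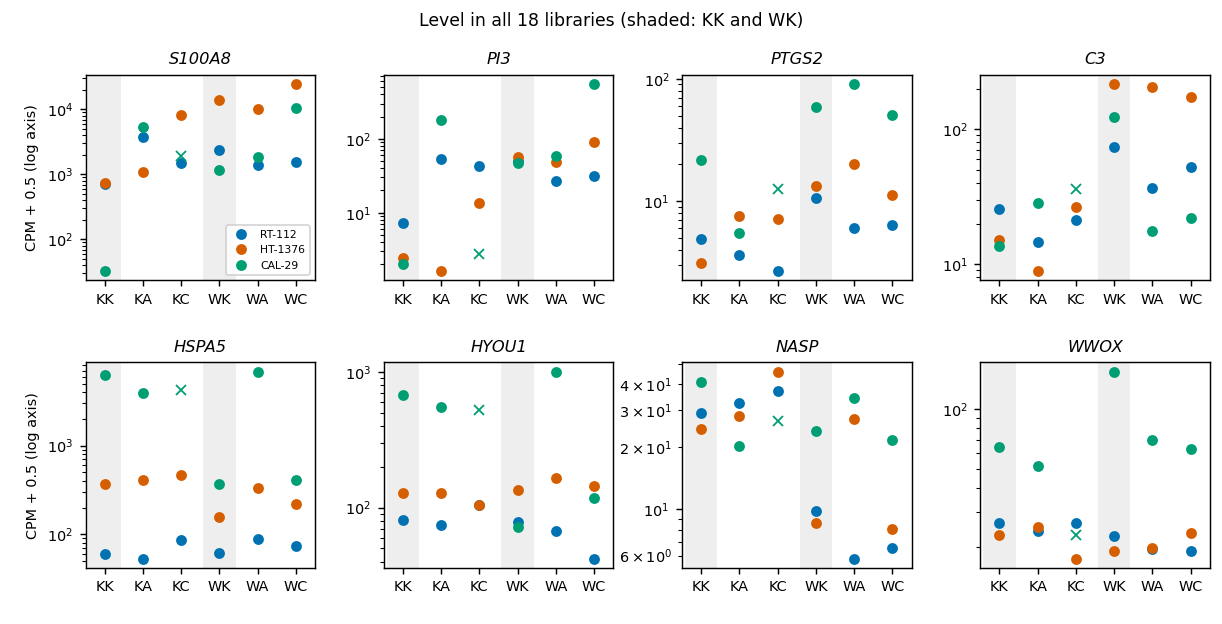
CPM + 0.5 on log axes of 8 genes in all 18 libraries, by variant, with KK and WK shaded and the CAL-29 KC library drawn as a cross. PI3 in RT-112 is low in KK alone (6.65 CPM), C3 in HT-1376 is high in the 3 WWOX variants (174 to 215 CPM), and HSPA5 in CAL-29 is low in WK and WC (373 and 406 CPM).

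The same genes were followed in the pairs with AP-2α (WA against KA) and AP-2γ (WC against KC), whose libraries had not chosen them. Of the 109 higher genes 98 were higher in WA than in KA of HT-1376 (89.9%, all genes 37.4%), 75 in RT-112 (68.8%, all genes 49.3%) and 60 in CAL-29 (55%, all genes 66.6%). In WC against KC, 91 were higher in HT-1376 (83.5%, all genes 44%) and 70 in RT-112 (64.2%, all genes 36.3%). Of the 67 lower genes 60 were lower in WA of HT-1376 (89.6%, all genes 61.4%), 40 in that of RT-112 (59.7%, all genes 48.2%) and 5 in that of CAL-29 (7.46%, all genes 32.5%), where 62 were higher. In WC, 64 of HT-1376 (95.5%, all genes 55.1%) and 54 of RT-112 (80.6%, all genes 60.8%) were lower. Both RT-112 and HT-1376 had the WK direction for 68 of the 109 higher genes in WA (62.4%, all genes 19%) and 58 in WC (53.2%, all genes 17.7%), and for 34 of the 67 lower genes in WA (50.7%, all genes 30.4%) and 51 in WC (76.1%, all genes 35.6%). In WA 6 of the 10 leading higher genes were higher for RT-112, 8 for HT-1376 and 2 for CAL-29, where 8 were lower, and in WC 8 were higher in RT-112 and 6 in HT-1376. Since the first transduction is shared, agreement in these pairs is not independent of it.

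In all 5 of these pairs 24 of the 109 genes (22.0%, all genes 3.99%) were higher with WWOX, including PTGS2, IL32, CCL22, AQP3, FABP4, GGT1, PRSS12 and WFDC21P, and 2 of the 67 (2.99%, all genes 2.98%) were lower, CLU and MIR6843, a microRNA that lies in CLU on the same strand. The share of the lower genes was that over all genes. CLU, a secreted chaperone, was at 107 and 62.6 CPM in KK and WK of RT-112, 692 and 37.5 CPM for HT-1376, 207 and 146 CPM for CAL-29. The chemokine CCL22 was at 12.7 and 26.3 CPM, 0.13 and 4.99 CPM, and 0.17 and 4.92 CPM. AQP3, a water and glycerol channel, was at 56.3 and 123 CPM, 107 and 203 CPM, and 3.81 and 37.7 CPM. C3 and NASP were not among these 24 and 2 genes, and kept an order only in RT-112 and HT-1376. C3 was at 36.4 to 73.0 CPM in the WWOX variants of RT-112 and 14 to 24.9 CPM in the others. In HT-1376 it was at 174 to 215 CPM and 8.40 to 26.0 CPM. NASP was at 5.31 to 9.37 CPM in the WWOX variants of RT-112 and 28.6 to 36.6 CPM in the others. WA of HT-1376 at 26.6 CPM was the exception to the same order in that line. In CAL-29 NASP, like all 10 leading lower genes, was higher in WA than in KA.

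**Figure D5:**
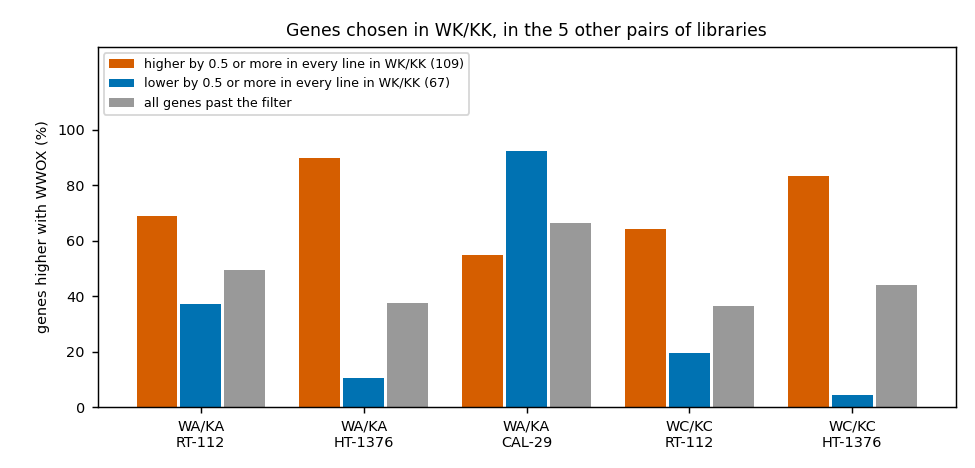
Percent of genes higher with WWOX in WA against KA and WC against KC, for the 109 higher genes (orange), the 67 lower genes (blue) and all 12607 genes (grey). Orange bars stand above grey in RT-112 and HT-1376 and below in CAL-29 (55% and 66.6%), where the blue bar reaches 92.5%.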

How the data were processed

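CAGE libraries of 18 transduced bladder cancer cultures, 3 lines with 6 variants each, were sequenced by the authors as reads of 75 nt, which they mapped to hg38 with BWA and HISAT2 2.0.5 and clustered into transcript starts. The annotation, and how starts were given to genes, are not given in the sources used here. The authors deposited CPM per gene (reads scaled to a common library total), with 2 decimals. The 6 compared columns sum to 937919 to 946589, so their total included reads outside genes. Whole reads were recovered from the CPM steps, 99.97% or more of the values of the 6 compared libraries being whole within the rounding of 0.005 CPM, and 3 reads are worth 0.163 to 0.197 CPM, the limit that a count of 0 allows. Counting intervals are exact and at 95%, and cover counting error only.

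Samples were grouped by their titles and paired by cell line. The variants share replicate numbers only as the line: number 1 is RT-112, 2 is HT-1376 and 3 is CAL-29. Genes with at least 5 CPM in 1 of the 6 libraries were kept, and WK was tested against KK on log2(CPM + 0.5) with limma 3.58.1 (R 4.3.3), with the line as a block and an adjusted p under 0.05. A fold change on this scale understates the change of low genes. The test was checked on simulated counts of 12283 genes. Count tests with edgeR 4.0.16, limma-voom and DESeq2 1.42.0 on recovered reads, other pseudocounts, filters and scalings, each line left out, no block, and all 18 or 17 libraries were tried. Genes named are, by rule, the 10 with the largest smallest change in each direction, the leading ones carried by each line, and leading members of 39 gene lists. The lists, members and rules were chosen with earlier results of these data known. PLA2G2A, KRT4, RHOV, S100A12, SPRR1B, CFB, KRT5, KRT14, CXCL8, CCL22, AQP3, ASNS, SLC7A11, CLU and the genes only listed by name were added after their values were seen, as were the NF-κB and C/EBP motifs. The tables given per library repeat single columns of the combined table and were not used.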

Additional observations from a re-analysis of the deposited data

Results flagged for a closer look

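These genes and lists had changes of opposite sign in 2 lines, with 1 pair of libraries a line, so the difference between the lines was not tested. KLHDC7B had changes of 4.45 in HT-1376 and -4.37 in CAL-29, TNC, which encodes the matrix protein tenascin C, of 5.68 and -4.36, and the kallikrein protease gene KLK7 of 4.24 and -4.98. TNC was at 2.38 and 3.00 CPM in KK and WK of RT-112, 0.26 and 38.4 CPM in HT-1376, and 178 and 8.23 CPM in CAL-29. KLHDC7B was at 1.00 and 6.53 CPM, 0.66 and 24.9 CPM, and 104 and 4.59 CPM in the same order. KLK7 was at 0 in both RT-112 libraries. TRBJ2-1 and TRBJ2-2, gene segments of the T cell receptor β locus with the same tags, each had changes of 5.27 in HT-1376 and -3.84 in CAL-29.

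Among gene lists, the median change of FGF receptors and ERK feedback genes was 0.81 in HT-1376 and -0.93 in CAL-29. It was 1.22 and -0.62 for EMT regulators and mesenchymal genes, and 0.56 and -0.63 for matrix proteins and integrins. Of the 11 EMT genes past the filter 7 were higher by 1 or more in HT-1376 (all genes 7.88%) and 1 lower (all genes 14.2%). The summed level of the 15 EMT genes listed went the other way there, 2721 CPM in KK and 812 CPM in WK. KK was the lowest HT-1376 library for 7 of the 11 (63.6%, all genes 15.8%). NRF2 and antioxidant genes had medians of 0.81 and -1.13, led by AKR1C2, an aldo-keto reductase, at 2.17 and 234 CPM in HT-1376 and 219 and 73.8 CPM in CAL-29. DNA replication and mitosis genes went the other way, with 0.65 in CAL-29 and -0.68 in HT-1376.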

How the results depend on the processing

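Of 661 single values under alternatives, 624 kept their direction and side of the threshold or stayed within the spread of the lines, 21 list medians moved beyond it, 14 gene changes passed the threshold, and 2 turned. The mean change of WWOX ran from -0.24 without CAL-29 to 0.53 without HT-1376, and that of TFAP2C from -0.62 without CAL-29 to 0.019 without HT-1376. The 14 were the 10 leading higher genes with DESeq2 and PI3, S100A8, WFDC21P and C3 without HT-1376. The number of genes called was 33 with DESeq2, between 0 and 9 with 1 line left out, and 0 in all other fits, among them edgeR, limma-voom, TMM scaling and the 18-library fits. Without the replicate block it was 0, with 19 genes at an unadjusted p under 0.05 against 478 with the pairing by line.

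The counts of genes that differed by 0.5 or more in every line, 109 higher and 67 lower, followed the treatment of low values. With a pseudocount of 2 CPM they were 62 and 10, and with 0.05 CPM the lower ones were 139. With 5 CPM in at least 3 libraries they were 69 and 39, and with 5 CPM in every line, a choice made after seeing the data, 51 and 15. With 1 line left out, fewer lines had to move together, and the counts were 257 to 531 higher and 93 to 1678 lower; without RT-112 they were 531 and 1678. Subtracting each line's median gave 127 and 54, and 1 entry for each set of equal values 106 and 66, both chosen after seeing the data. Medians of 1 sign in all 3 lines were held by 10 of 35 lists, and by 14 to 23 with a line left out, 23 without CAL-29. Of the 109, 53.2% were higher in WC than KC in both RT-112 and HT-1376, and 40.4% with CAL-29 included. The median read count of the lower library of a pair was 34, 53 and 159 for the 67 genes and 79, 40 and 80 for the 109, in RT-112, HT-1376 and CAL-29, against 167, 173 and 323 over all genes.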

Other observations

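Of 70 cytosolic ribosomal protein genes 7 were higher and 3 lower in WK in all 3 lines, beside 10% and 15.8% of all genes, and their medians were -0.05 for RT-112, 0.29 for HT-1376, -0.08 for CAL-29. Of 70 oxidative phosphorylation genes 2 were higher and 7 lower in all 3 lines, with medians of -0.18, 0.04 and 0.39. CYP1A1, the aryl hydrocarbon receptor's best known target, was at 16.8 and 13.8 CPM in KK and WK of RT-112, 132 and 47.4 CPM in HT-1376, and 37.7 and 6.85 CPM in CAL-29. The angiogenic factor VEGFA was at 124 and 148 CPM, 105 and 851 CPM, and 1332 and 335 CPM.

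Metallothionein MT1X was at 36.6 and 96.6 CPM in RT-112, 485 and 677 CPM in HT-1376, and 163 and 449 CPM in CAL-29, higher in WK in 3 of 3 lines. Of 10 metallothionein and metal transport genes past the filter 1 (10%, all genes 10%) was higher in all 3 lines. Another 1 (10%, all genes 15.8%) was lower, and the medians were 0.35, 0.07 and -0.37. The imprinted gene MEST was at 47 and 49.99 CPM, 9.34 and 0.06 CPM, and 92.0 and 37.7 CPM. Of 16 cancer-testis genes past the filter 0 were higher and 0 lower in all 3 lines (all genes 10% and 15.8%). Of the 23 listed, 14 and 16 were at 0 CPM in KK and WK of RT-112, and 19 and 22 in CAL-29. Few of them could thus move in all 3 lines. The summed level of the 23 was 985 to 1135 CPM in HT-1376 and at most 6.15 CPM in RT-112 and CAL-29. XAGE2 was at 183 and 12 CPM in HT-1376 and at 0 in the other 4 libraries.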
